A study of Mus musculus with 16 samples.

Results

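The effect of VEGF in the bladder on sensory ganglia of female mice was read from 8 of the 16 libraries of the series, the 8 whose labels name a female animal. The rule that picks them reads sex and treatment from the labels and uses no measured value. All 8 animals were wild-type C57BL6/J mice, and age was not given in the labels. The VEGFA females (n = 4) had 100 µL of saline with 6.41 nM VEGF165 put into the bladder on days 1, 5 and 9, and the saline females (n = 4) had the same volume of saline on the same days. Lumbosacral dorsal root ganglia (levels L1, L2, L6, S1, S2) were collected from each animal on day 16, after a von Frey test, and poly(A) RNA was sequenced. Animals 1 and 2 (VEGFA) and 3 and 4 (saline) belonged to batch 1, and animals 5 and 6 (VEGFA) and 7 and 8 (saline) to batch 2. The male groups of the series, also 4 libraries each, share the estimate of the spread and are otherwise given only for comparison. Values in single libraries are counts per M reads (CPM, M for mega) and stand in the order of animals 1, 2, 5 and 6 for VEGFA and 3, 4, 7 and 8 for saline.

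Vascular endothelial growth factor A is a secreted protein that makes blood vessels grow and leak by way of receptors on endothelial cells, and some sensory neurons carry its receptors too. Dorsal root ganglia hold the cell bodies of the sensory neurons, among them those that report bladder filling and pain, wrapped by satellite glia and embedded in Schwann cells, fibroblasts, vessels and resident macrophages. Interferons are cytokines that switch on a common set of antiviral genes in almost any cell, through transcription factors, IRF9 among them, that bind a short promoter element.

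The labels of the female libraries fitted the RNA. Xist, the transcript that silences an X chromosome, was between 18.6 and 95 CPM in all 8, and the 4 Y-linked genes summed to 0 to 0.297 CPM. The ganglion markers were high in every library, with 13300 to 25000 CPM summed over 14 neuronal genes. Between 25.16 and 37.57 M reads (M for mega) were counted in each. Consecutive numbers at the end of the names of batch 1 libraries made up 2 runs of 4, one with the saline females and VEGFA males and one with the VEGFA females and saline males. What the runs stand for was not given. A library's trend of log2 level on log2 transcript length was -0.178 to -0.106 per doubling of length in the first run and -0.0739 to 0.033 in the second. In batch 2 it was 0.0833 and 0.0882 in VEGFA and 0.0337 and 0.116 in saline females. In batch 1 the female comparison and the runs cannot be told apart, so the main results are also given for batch 2 alone.

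No single gene passed the threshold. Of 18283 genes tested by limma, 0 had an adjusted p under 0.05, the smallest being 0.509, which is 0% called. An unadjusted p under 0.05 was reached by 860 genes that lay higher in VEGFA females (4.7% of those tested) and 875 that lay lower (4.79%) and 1735 in all. Scaling by median of ratios moved this split to 1036 higher and 691 lower, and edgeR on the recovered reads gave 939 and 616. edgeR called 0 genes (1555 with an unadjusted p under 0.05), and DESeq2 called 1 (1781 with an unadjusted p under 0.05), which was Hspa1l. The 4 VEGFA values all lay above the 4 saline values for 114 genes (0.624%) and all below them for 388 (2.12%). With median-of-ratios scaling these counts were 199 and 240. All genes named below that had an unadjusted p under 0.05 had an adjusted p of 0.509 in limma, so none of their differences is a call. The p-values measure the spread between these animals. The gene lists below were chosen with earlier results of these data known, so their counts beside all genes are a description and not a test. In bulk RNA of a ganglion, fewer cells of a type and less RNA per cell cannot be told apart.

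Interferon-stimulated genes lay lower after VEGF in both batches of female ganglia. Of 43 such genes tested, 37 lay lower in VEGFA females, where 51.4% of all genes did. Their median log2 difference was -0.39, against -0.01 for all genes. An unadjusted p under 0.05 was reached by 16 on the lower side, against 4.79% of all genes, and by 1, Ifit2, on the higher side. In 9 of the 43 every VEGFA value lay below every saline value, against 2.12% of all genes. The median was -0.52 in batch 1 and -0.30 in batch 2. In batch 1 alone 35 of 43 lay lower, 9 with an unadjusted p under 0.05 (9.22% of all genes), and 1 lay higher with such a p (10.1% of all genes). In batch 2 alone 33 of 43 lay lower, where 52.4% of all genes did, 12 with an unadjusted p under 0.05 (2.28% of all genes), and 0 lay higher with such a p (1.79% of all genes). In males the median was 0.14 in batch 1 and 0.06 in batch 2.

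Interferon-stimulated genes often carry the interferon-stimulated response element, searched for here as GAAA, any 2 bases and GAAA again, or the reverse complement with TTTC on either side, within 250 bases before the transcription start, with overlapping matches kept. RefSeq promoters of build GRCm38.p6 were found for 31 of the 43 genes, and 13 of these held the motif (41.9%). It stood in 2.98% of all 32851 promoters and in 3.2% of the 12395 tested genes with a promoter entry. All 13 genes with the motif lay lower in VEGFA females, with a median log2 difference of -0.44, and 13 of the 18 without it did, with a median of -0.20. Genes without a promoter entry, Rtp4, Zbp1 and Mx1 among them, are outside this split. Of the whole list 37 of 43 lay lower. Whether the motif bears on the difference was not tested. The stretches of 4 genes with the motif, and of the class I light chain gene B2m, are shown because they carry the element and their levels follow. Most class I and class II genes did not carry it (3 of 17 and 1 of 7 with a promoter entry did). It was also absent from the promoters of Irf7, Ifitm3, Tap1, Psmb8, H2-D1 and H2-K1, which are described below. Capitals mark the motif on either strand, and each stretch ends before the transcription start. A match is a description of these letters only.
Bst2, chr8:71537547-71537642, minus strand: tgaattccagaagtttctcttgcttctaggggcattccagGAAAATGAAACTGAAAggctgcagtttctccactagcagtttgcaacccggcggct
Ifit1, chr19:34640745-34640853, plus strand: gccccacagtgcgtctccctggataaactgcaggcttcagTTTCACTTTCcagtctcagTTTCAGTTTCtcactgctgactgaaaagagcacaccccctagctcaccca
Ifit3, chr19:34583333-34583456, plus strand: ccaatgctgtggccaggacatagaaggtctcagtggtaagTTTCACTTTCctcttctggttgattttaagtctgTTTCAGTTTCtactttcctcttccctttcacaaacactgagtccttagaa
Gbp2, chr3:142620564-142620653, plus strand: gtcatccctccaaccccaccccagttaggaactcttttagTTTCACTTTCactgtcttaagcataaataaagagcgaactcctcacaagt
B2m, chr2:122147508-122147597, plus strand: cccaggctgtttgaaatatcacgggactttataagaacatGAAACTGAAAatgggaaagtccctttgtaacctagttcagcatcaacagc

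Bst2 codes for tetherin, a membrane protein that holds budding viruses to the cell. It stood at 17.3, 17.9, 17.7 and 16.1 CPM in VEGFA females and at 29.8, 59.6, 28.4 and 32.5 CPM in saline females. The VEGFA values lay within a narrow band, every saline value lay above them, and saline animal 4 stood highest. The log2 difference was -1.03 (SE 0.251, 95% CI -1.56 to -0.51), with -1.24 in batch 1 and -0.83 in batch 2. Its 2 motif copies overlap, as the capitals in the first sequence show. In males it lay the other way (0.37), and the female minus male difference was -1.40 (limma adjusted p = 0.608). Bst2 (ENSMUSG00000046718) lies on chromosome 8 at 71986899 to 71990100 of build mm39.

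Irf7, the transcription factor that amplifies the interferon response, was 10.9, 16.4, 21.4 and 15.8 CPM after VEGF and 29.3, 45.2, 25.7 and 32.1 CPM after saline. The groups did not overlap, and the log2 difference was -1.02 (SE 0.266). Rtp4, an interferon-induced chaperone of receptors that also holds back RNA viruses, was 5.88, 5.09, 8.25 and 5.32 against 17.3, 14.7, 9.36 and 11.5 CPM. Its difference was -1.03 (SE 0.255) and was larger in batch 1 (-1.46) than in batch 2 (-0.60). Part of the Rtp4 model overlaps another gene, Masp1, and no source used here says that reads were counted by strand.

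Zbp1, a sensor of Z-form nucleic acid that can start necroptosis, was 2.34, 2.42, 6.1 and 3.17 CPM in VEGFA and 7.11, 11.7, 7.47 and 7.63 CPM in saline females, a difference of -1.23 (SE 0.322). VEGFA animal 5 stood apart from the other VEGFA animals but still lay below every saline animal. Ifitm3, which blocks entry of viruses through endosomes, was 57.7, 66.9, 65.5 and 56 CPM after VEGF, and its lowest and highest saline values were 79.3 and 166 CPM. These values did not overlap either, and the difference was -0.83 (SE 0.203). Lgals3bp, a secreted glycoprotein, was 81.9, 82.3, 83.7 and 88.8 CPM after VEGF and 104 to 158 CPM after saline, with a difference of -0.54 (SE 0.125).

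A few members had their larger difference in batch 2. Ifit1, which recognises viral RNA caps, was 13.3, 10.3, 12.9 and 12.7 CPM in VEGFA and 16, 14.7, 28.2 and 26.5 CPM in saline females, with -0.37 in batch 1 and -1.07 in batch 2. Mx1, an antiviral GTPase, was under 1 CPM in the 4 VEGFA libraries (0.175, 0.517, 0.346 and 0.773 CPM) and stood at 0.816, 1.13, 2.83 and 2.66 CPM in saline libraries. Parp9, an interferon-induced protein of the ADP-ribosylation family, had -0.46 in batch 1 and -0.61 in batch 2 and its groups did not overlap. Ifit3 had -0.62 in both batches, with 1 saline animal (3) at the level of the VEGFA group (20.2 CPM).

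Gbp2, a guanylate-binding protein of the interferon-gamma response, lay lower (log2 difference -0.90, SE 0.335) with overlapping groups. Saline animals 4 and 8 had its highest levels (51.6 and 51.9 CPM). Igtp (-0.60), whose model overlaps the related gene Irgm2, Oasl2 (-0.52) and Ifi27 (-0.47) also overlapped by single animals. Ifit2, next to Ifit1 and Ifit3 in function, went the other way (0.51), but by 0.86 in batch 1 and 0.16 in batch 2 only. Leaving out each female library in turn gave list medians of -0.54 (without VEGFA animal 5) to -0.33, and without saline animal 4 the median was -0.34 with 40 of 43 lower.

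**Figure D1:**
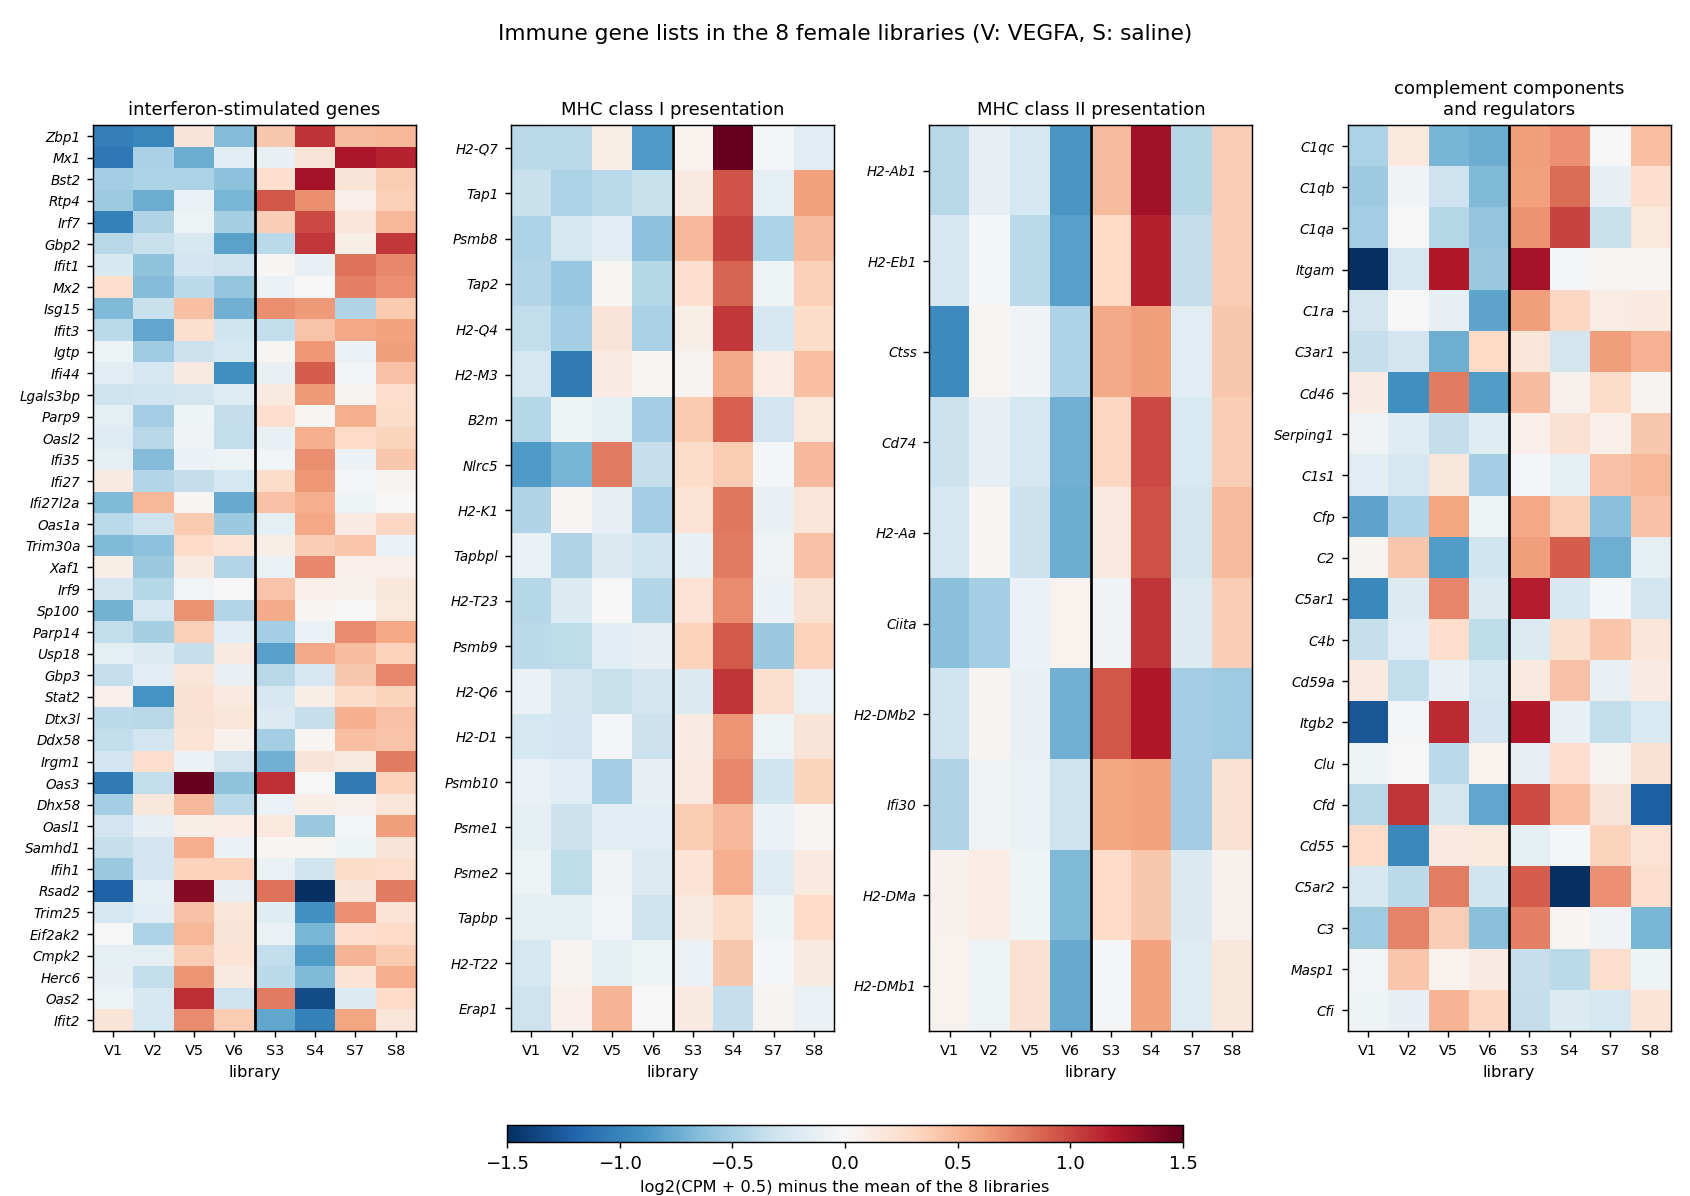
Heat map of 4 immune gene lists in the 8 female libraries. Columns are VEGFA (V1, V2, V5, V6) and saline animals (S3, S4, S7, S8), rows are genes ordered by their difference, and colour is log2(CPM + 0.5) minus the gene's mean over the 8 libraries. The saline columns are redder for 36 of the 42 interferon-stimulated genes drawn, 2 genes of these lists are not drawn, and S4 stands out for class I and class II genes.

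Of the genes that sense and transmit interferon signals, 14 of 22 lay lower and 6 had an unadjusted p under 0.05 (4.79% of all genes on that side), with a median of -0.20. This median was -0.33 in batch 1 and 0 in batch 2. Socs1, the feedback inhibitor of JAK kinases, was 3.29, 2.07, 3.62 and 2.4 CPM after VEGF and 7.73, 7.41, 4.07 and 8.51 CPM after saline. Irf3, the factor that starts interferon production, was 28, 22.5, 27.4 and 25.3 against 34.8, 55.3, 35.1 and 31.7 CPM. Neither gene's groups overlapped, and the differences were -1.13 (SE 0.391) and -0.56 (SE 0.209). Sting1, the adaptor of cytosolic DNA sensing, lay lower (log2 difference -0.80, SE 0.25). Myd88 (-0.37) and Ifngr1 (-0.27), a Toll-like receptor adaptor and a chain of the interferon-gamma receptor, had small differences without overlap.

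The interferon-induced chemokine Cxcl10 was 1.43, 2.38, 1.3 and 0.966 CPM in VEGFA and 1.44, 14.6, 2.67 and 6.21 CPM in saline females. Saline animal 3 lay within the VEGFA range and animal 4 far above it, and the difference was -1.35 (SE 0.512). Cxcl10 lies inside the gene Art3, which had a mean of 86.3 CPM over the 16 libraries. Ccl5, a chemokine for T cells, was 0.769, 2.42, 3.62 and 1.85 against 4.04, 12.4, 2.4 and 3.49 CPM, a difference of -1.06 that was -1.99 in batch 1 and -0.13 in batch 2.

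Genes that present antigen on class I molecules also lay lower, with a stronger dependence on batch. Of 20 tested, 19 lay lower and 12 had an unadjusted p under 0.05 (4.79% of all genes), with a median of -0.53. In batch 1 the median was -0.74, and in batch 2 it was -0.27, where 2 of the 20 had an unadjusted p under 0.05 (2.28% of all genes). B2m, the light chain of all class I molecules, was 334, 429, 406 and 316 CPM after VEGF and 593, 839, 368 and 503 CPM after saline. Saline animal 4 had the highest value, saline animal 7 lay within the VEGFA range, and the difference was -0.58 (SE 0.194). The B2m model lies inside Patl2, which had a mean of only 0.668 CPM.

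Tap1 and Tap2 form the pump that moves peptides to class I molecules. Tap1 was 17.2, 15.6, 16.4 and 17.2 against 24.1, 42.5, 19.6 and 33.6 CPM, without overlap (-0.77, SE 0.278). Tap2 lay lower (log2 difference -0.71, SE 0.191), as did the heavy chains H2-D1 (-0.45, SE 0.145) and H2-K1 (-0.53, SE 0.177), and the immunoproteasome subunit Psmb8 (-0.75, SE 0.259), all with saline animal 7 inside the VEGFA range. Without saline animal 4 the class I median was -0.36 and 5 of the 20 had an unadjusted p under 0.05, as did 369 of all 18283 genes on the lower side.

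All 10 class II genes tested lay lower (51.4% of all genes did), 6 with an unadjusted p under 0.05 (4.79% of all genes), and their median was -0.62 (-0.87 in batch 1 and -0.33 in batch 2). Class II molecules present antigen on macrophages, dendritic cells and B cells. H2-Ab1 was 98.6, 121, 110 and 71.8 CPM in VEGFA females and 183, 318, 98.1 and 171 CPM in saline females, so that animal 7 overlapped the VEGFA group (-0.84, SE 0.284). Cd74, the invariant chain, was 197, 227, 206 and 149 against 305, 489, 210 and 319 CPM (-0.71, SE 0.261). The protease Ctss, which trims that chain, lay lower (log2 difference -0.72, SE 0.232), and the remaining members with an unadjusted p under 0.05 were H2-Eb1, H2-Aa and Ifi30. Without saline animal 4 the median was -0.44 and 2 of the 10 had an unadjusted p under 0.05, as did 369 of all 18283 genes on the lower side.

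Class I and class II genes moved with the runs in batch 1. In males, where saline and VEGFA libraries lie in the opposite runs, the class I median was 0.36 in batch 1 and -0.40 in batch 2, and the class II median 0.45 and -0.77. In batch 2 VEGFA lay below saline in both sexes for both lists. The part of the runs in the batch 1 values was not tested.

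Complement genes lay lower in 21 of 23 cases, 6 with an unadjusted p under 0.05 (4.79% of all genes), and had a median of -0.34 (-0.38 in batch 1, -0.19 in batch 2). In males the median was 0.24 in batch 1 and -0.32 in batch 2. The first component led. C1qc was 36.7, 57, 31.3 and 30.3 CPM in VEGFA and 78.8, 82.3, 50.6 and 69.9 CPM in saline females, with VEGFA animal 2 above saline animal 7 (-0.87, SE 0.203). C1qb (-0.79, SE 0.229) and C1qa (-0.76, SE 0.226), the other chains of C1q, lay lower with overlapping groups. C1q is made mostly by macrophages and tags cells and synapses for removal.

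The protease C1ra was 17.5, 21.4, 19.6 and 12.1 against 33.1, 26.5, 23 and 23.7 CPM, and Serping1, the C1 inhibitor, was 272, 249, 221 and 249 against 298, 331, 298 and 373 CPM. Both were without overlap, with -0.59 (SE 0.192) and -0.39 (SE 0.149). C3, the central component, differed by -0.03 (SE 0.349). Masp1 (0.28) and Cfi (0.31) were the 2 members that lay higher.

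Markers of immune cells were uneven. Of 20 macrophage markers 17 lay lower, with a median of -0.27, and 1 of the 20, Aif1 (IBA1), had an unadjusted p under 0.05, a share near the 4.79% of all genes (3.11, 2.03, 2.02 and 0.828 CPM against 5.79, 9.12, 3.21 and 3.11 CPM). The median was -0.09 without saline animal 3, -0.15 without VEGFA animal 1 and -0.49 without VEGFA animal 5. The 12 T, B and natural killer cell markers had a median of -1.36 in batch 1 and 0.10 in batch 2. Neutrophil markers summed to 398, 1420, 3550 and 1050 CPM in VEGFA and 4440, 1330, 748 and 1170 CPM in saline females, and red cell and platelet markers to 839, 1820, 4760 and 1780 against 4520, 1650, 1720 and 2890 CPM. VEGFA animal 5 and saline animal 3 were high in both, and neither list separated the groups. The summed macrophage level was 310 to 796 CPM after VEGF and 412 to 923 CPM after saline. The part of blood or macrophage content in the differences above was not tested.

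**Figure D2:**
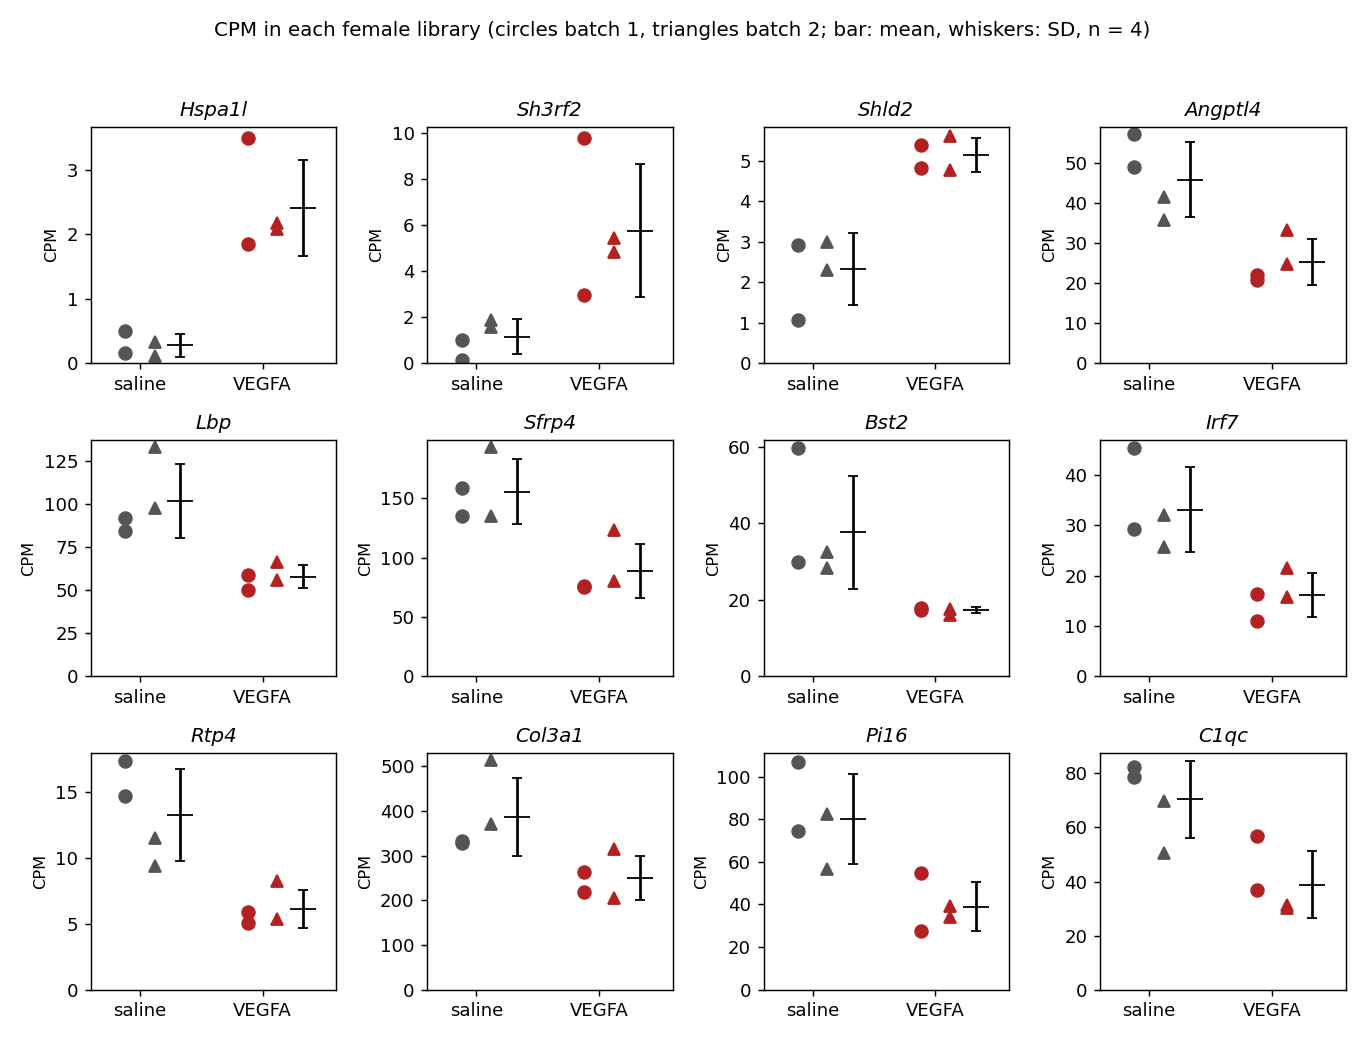
CPM of 12 genes in each female library, saline in grey and VEGFA in red, circles for batch 1 and triangles for batch 2, with mean and SD of 4 libraries. All VEGFA points lie on one side of all saline points except for C1qc, where VEGFA animal 2 (57 CPM) lies above saline animal 7 (50.6 CPM).

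Genes of fibroblasts and fibrillar collagens lay lower as well, and here batch 2 carried the larger difference. Of 22 genes, 21 lay lower, 9 had an unadjusted p under 0.05 (4.79% of all genes) and 8 had groups that did not overlap (2.12% of all genes). The median was -0.31, -0.17 in batch 1 and -0.55 in batch 2. In batch 2 alone 21 of 22 lay lower and 15 had an unadjusted p under 0.05, against 2.28% of all genes. The range of medians with each female library left out was -0.43 (without VEGFA animal 2) to -0.21 (without VEGFA animal 6). In males the median was 0.29 in batch 1 and -0.39 in batch 2.

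Col3a1, the collagen of pliable connective tissue, was 264, 218, 314 and 205 CPM after VEGF and 328, 333, 372 and 514 CPM after saline. The groups did not overlap, and the difference was -0.62 (SE 0.147, 95% CI -0.93 to -0.31). Col6a2, a chain of the beaded collagen that surrounds cells, was 134, 126, 142 and 114 against 175, 226, 198 and 332 CPM (-0.81, SE 0.214). Its partner Col6a1 was 110, 115, 120 and 93 against 141, 176, 148 and 229 CPM (-0.64, SE 0.208). In both, saline animal 8 was the highest and none overlapped.

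Pi16 marks a population of fibroblasts found in the adventitia and the nerve sheath. It stood at 27.6, 54.8, 34.2 and 39.2 CPM in VEGFA and 74.4, 107, 56.4 and 82.3 CPM in saline females, with -1.19 in batch 1 and -0.89 in batch 2. Fbln1, a glycoprotein of elastic matrix, was 33.9, 58.9, 36.1 and 45 against 65.6, 84.5, 61.6 and 73.7 CPM and differed by about the same amount in both batches (-0.73 and -0.74). Bgn (biglycan, -0.61) and Igfbp6 (-0.67), which binds insulin-like growth factor, were also without overlap. Dcn (decorin) lay at 566 to 692 CPM after VEGF and 696 to 801 CPM after saline (-0.26, SE 0.115).

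Enzymes that build and cut matrix followed. Of 19, 12 lay lower, 7 of them with an unadjusted p under 0.05 (4.79% of all genes), and 1 lay higher with such a p (4.7% of all genes). The median was -0.33, with -0.22 in batch 1 and -0.44 in batch 2, and without VEGFA animal 6 it was -0.15 with 10 of 19 lower. Pcolce, which speeds the trimming of procollagen, was 87.8, 96.6, 73.3 and 71.3 against 119, 180, 109 and 146 CPM (-0.73, SE 0.215). Adamts2, a protease of procollagen (-0.48), the membrane protease Mmp14 (-0.42) and Adamtsl4 (-0.42) were without overlap too. Serpinh1, the collagen chaperone HSP47, lay lower (-0.45), as did Loxl1, a cross-linking oxidase (-0.66), both with overlap.

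The metalloprotease inhibitors Timp1 and Timp3 need care. Timp1 lay lower (-0.84, SE 0.31) at 3.81 to 5.56 CPM against 5.04 to 15.4 CPM, but its whole model lies inside the neuronal gene Syn1, which was at 535 to 817 CPM. Timp3 was 165, 175, 230 and 179 CPM in VEGFA females and 39.8, 21.1, 232 and 171 CPM in saline females. It was thus low in the 2 saline libraries of batch 1 alone, with a difference of 2.53 in batch 1 and 0.02 in batch 2. Of 12 basement membrane genes 1, Lamb2, a laminin chain, had an unadjusted p under 0.05 (4.79% of all genes on the lower side) and groups without overlap (2.12% of all genes). Its difference was -0.41 (SE 0.165), and the list median was 0.07, with 0.28 in batch 1 and -0.13 in batch 2.

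**Figure D3:**
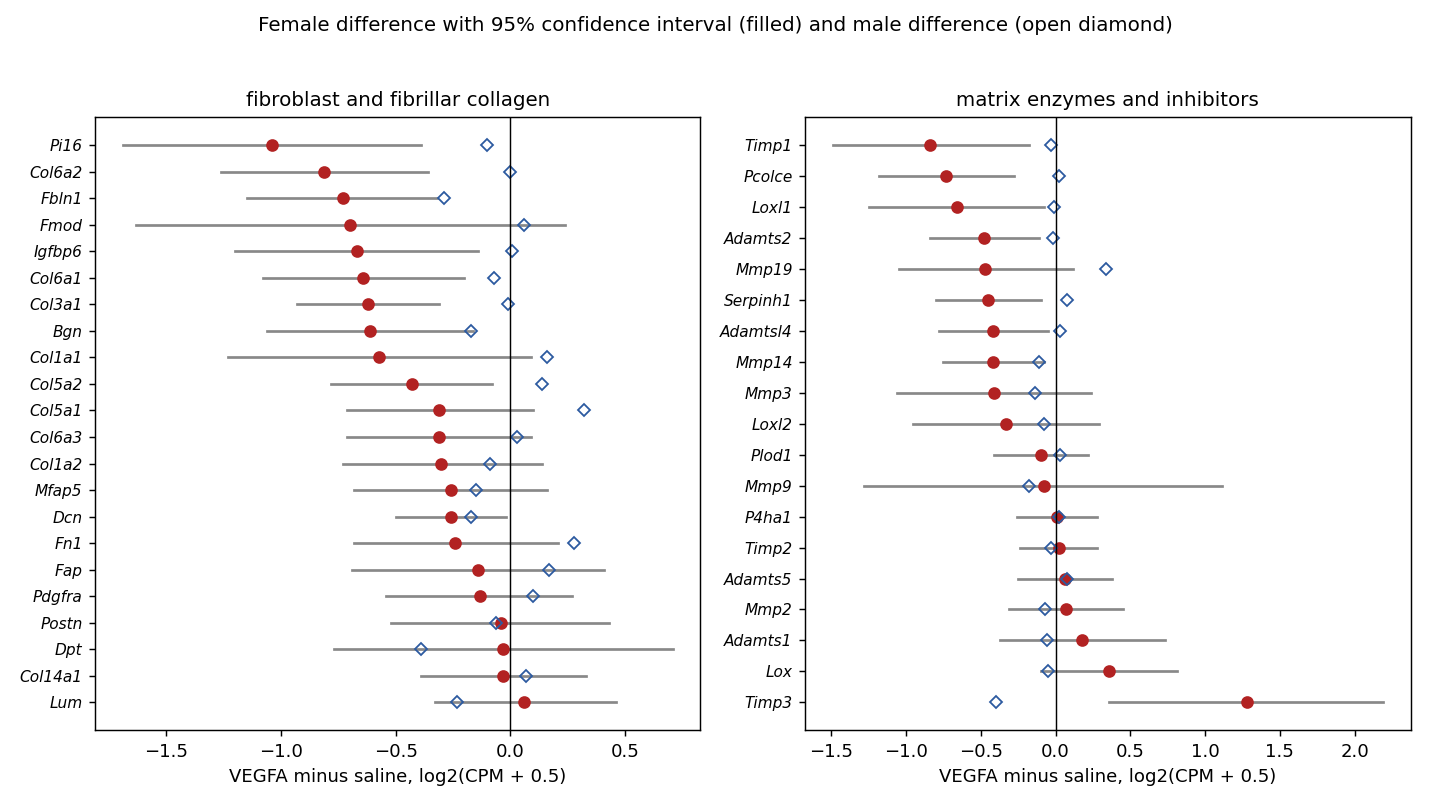
VEGFA minus saline difference in log2(CPM + 0.5) of the fibroblast and matrix enzyme genes, with the female value as a filled point with its 95% confidence interval and the male value as an open diamond. In the fibroblast panel 21 of 22 female points lie below 0, and 15 of the 22 male points lie nearer 0 than the female ones.

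Some of the smallest p-values belonged to single genes. Lbp, which hands lipopolysaccharide to CD14, was 58.8, 50.2, 66.4 and 55.8 CPM in VEGFA and 84.3, 91.7, 97.8 and 133 CPM in saline females. The groups did not overlap and the difference was -0.79 (SE 0.16, 95% CI -1.13 to -0.46), -0.69 in batch 1 and -0.90 in batch 2. Angptl4 and Sfrp4, an inhibitor of lipoprotein lipase and an antagonist of Wnt signals, did not overlap either (-0.85, SE 0.171, and -0.82, SE 0.18). Both also lay lower in males (-0.65 and -0.63), so their female minus male differences were small (-0.20 and -0.19).

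Ecrg4, a precursor of secreted peptides, was 9.83, 19.8, 15.6 and 13 against 24.6, 44.5, 26.2 and 35.4 CPM (-1.14, SE 0.279), with -1.22 in batch 1 and -1.07 in batch 2. Gpx8, a peroxidase of the endoplasmic reticulum, was 19.9, 18.9, 13.1 and 15.6 against 27.8, 36.9, 24.2 and 23.8 CPM (-0.72, SE 0.186). Rfx1, a transcription factor, was 13.4, 10.6, 16.5 and 14.7 against 21.4, 25.5, 21.6 and 21.7 CPM (-0.70, SE 0.173). Magoh, a subunit of the exon junction complex, lay lower (log2 difference -0.70, SE 0.184). All 4 were without overlap, while Fam180a (-0.93) overlapped by VEGFA animal 5.

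Capn11, a calpain best known from testis, was 0.105, 0, 0.719 and 0.386 CPM after VEGF and 7.19, 5.58, 7.31 and 0.638 CPM after saline. Saline animal 8 was as low as the VEGFA animals, and without it the difference of -2.58 became -3.26 (limma adjusted p = 0.0206). The animal left out is the one that lay with the other group, so this p-value adds no support. Capn11 reached the 1 CPM limit for named genes through the saline females only. The males were at a mean of 0.576 (VEGFA) and 0.558 CPM (saline), and no male library was above 1.27 CPM.

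Of the genes that lay higher, Hspa1l had the smallest p-value of the whole comparison. It codes for an HSP70 family chaperone that is not heat-inducible and is best known from testis. Its level was 1.85, 3.5, 2.08 and 2.18 CPM in VEGFA and 0.505, 0.152, 0.324 and 0.111 CPM in saline females, means of 2.40 (SD 0.743) and 0.273 (SD 0.18) CPM. The difference was 1.91 (SE 0.342, 95% CI 1.18 to 2.63), with 1.92 in batch 1 and 1.89 in batch 2. At this low level the added 0.5 CPM shrinks it: it was 3.19 in edgeR (adjusted p = 0.566) and 3.21 in DESeq2 (adjusted p = 0.00455). Male means were 0.941 and 1.15 CPM, and the female minus male difference was 2.02 (limma adjusted p = 0.608). Hspa1l (ENSMUSG00000007033) lies on chromosome 17 at 35191679 to 35198261 of build mm39.

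The near copy Hspa1a, its neighbour, was 6.16, 8.31, 4.5 and 8.11 against 8.43, 10.2, 6.31 and 6.93 CPM and differed by -0.24 (SE 0.291). How reads were shared between these copies is not given, so the Hspa1l level is uncertain. Among 26 chaperone genes the median was 0.02, and the mitochondrial Hspe1 (-0.49) and the small heat shock protein Hspb1 (-0.34) lay lower, with -0.10 and -0.19 in batch 2.

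Sh3rf2, an inhibitor of JNK signalling scaffolds, was 2.94, 9.78, 4.84 and 5.44 CPM after VEGF and 1.01, 0.122, 1.86 and 1.55 CPM after saline (1.99, SE 0.435). Shld2, a subunit of the shieldin complex of DNA repair, was 4.83, 5.4, 5.62 and 4.77 against 2.91, 1.07, 2.99 and 2.3 CPM (1.07, SE 0.253). Neither overlapped, with Sh3rf2 at 2.62 and 1.36 and Shld2 at 1.28 and 0.86 in batches 1 and 2. Igkv9-120, an antibody light chain segment, was 0.56, 4.69, 7.32 and 2.54 against 0.466, 0.396, 0.0539 and 0.0832 CPM (2.22, SE 0.54), without overlap. Pde7b, a cAMP phosphodiesterase, and Prima1, the membrane anchor of acetylcholinesterase, lay higher by 0.88 (SE 0.247) and 0.79 (SE 0.228), both with saline animal 7 within the VEGFA range.

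Skeletal muscle genes lay higher in every list, but not by group alone. The 8 slow muscle genes had a median of 3.28, which was 1.66 for batch 1 alone and 4.51 for batch 2 alone. In males all 8 lay lower, with a median of -1.47 (0.21 for batch 1 alone and -3.02 for batch 2 alone). The 11 fast muscle genes had a median of 1.49 (1.53 and 1.54 by batch), and 10 of them had an unadjusted p under 0.05 (4.7% of all genes). Without saline animal 4 the fast muscle median was 0.82 and 0 of the 11 had such a p. Myh7, the slow myosin heavy chain, was 48.1, 211, 50.6 and 60.9 CPM in VEGFA and 71.9, 1.01, 0.701 and 0.444 CPM in saline females, so that saline animal 3 lay among the VEGFA animals. Without that animal 5 genes passed (Myh7, Tnni1, Tnnt1, Tnnc1 and Myl3), with Myh7 at 5.92 (limma adjusted p = 0.000805). The animal left out is the one that lay with the other group, so these calls add no support. Summed fast muscle levels were 8190, 25700, 8250 and 5520 CPM against 17200, 1600, 3910 and 1390 CPM. Nrap (2.33), Synpo2l (2.44), Txlnb (2.38) and Xirp1 (2.19), further genes of striated muscle fibres, were among the smallest p-values of the comparison and lay higher by similar amounts in both batches. Whether muscle was dissected with the ganglia was not tested.

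Of 13 genes of intracellular calcium release, 9 lay higher and 5 had an unadjusted p under 0.05 (4.7% of all genes). Atp2a2, the SERCA2 pump of slow muscle and other cells, was 242, 458, 255 and 305 CPM after VEGF and at most 211 CPM after saline, without overlap. Ryr1, the skeletal muscle release channel, was 245, 906, 314 and 203 against 318, 26, 131 and 34.4 CPM. Saline animal 3, with high muscle sums, was at 318 CPM for Ryr1, among the VEGFA animals, but below all of them for Atp2a2. The part of muscle content in these differences was not tested. Ryr3, the brain-type channel, was 4.27, 5.01, 6.79 and 6.84 against 1.59, 1.28, 5.91 and 3.63 CPM (0.96, SE 0.251), and lay higher in males too (0.92). Ryr2 (0.54) and the inositol trisphosphate receptor Itpr1 (0.60) had 0.14 and 0.32 in batch 2. Pdk4, a switch from glucose to fat use in muscle, lay higher by 1.47, and Scn4a, the sodium channel of muscle, by 1.36.

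**Figure D4:**
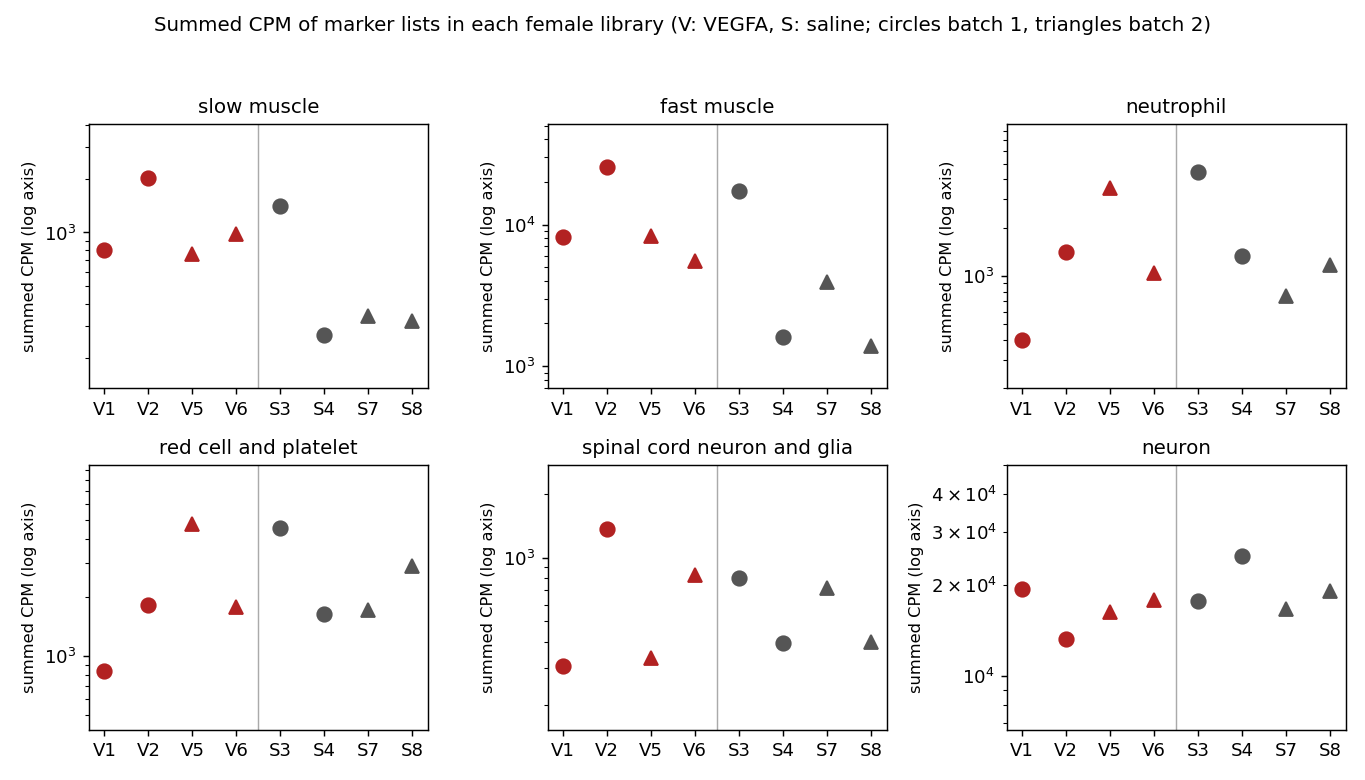
Summed CPM (log axis) of 6 marker lists in each female library, VEGFA in red and saline in grey, circles for batch 1 and triangles for batch 2. Saline animal 3 lies with the VEGFA animals for both muscle lists, and VEGFA animal 5 and saline animal 3 are highest for neutrophil and for red cell and platelet genes.

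Pan-neuronal markers lay lower mainly in batch 1. Of 14 such markers 13 lay lower with a median of -0.26, but none had an unadjusted p under 0.05. The median was -0.48 in batch 1 and -0.03 in batch 2. In both batches 10 of the 14 lay lower, as did 5361 of all 18283 genes. In males 13 lay higher, with a median of 0.17 in batch 1 and 0.16 in batch 2. Prph, the intermediate filament of small neurons, was 2270, 1340, 1960 and 2100 CPM after VEGF and 2120, 3090, 1920 and 2250 CPM after saline. Calca, the precursor of the pain peptide CGRP, was 1020, 479, 810 and 932 against 945, 1300, 1030 and 900 CPM. In both, VEGFA animal 2 was lowest and saline animal 4 highest.

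Single receptors and channels of sensory neurons lay higher in batch 1 alone. The batch 1 medians of their lists were -0.02 (TRP and mechanical, acid and ATP-gated channels) and 0.02 (non-peptidergic nociceptors). They were 0.05 for neurotrophic factors and receptors and 0.14 for potassium and HCN channels. Over both batches 0 of 26, 1 of 13, 1 of 17 and 3 of 36 lay higher with an unadjusted p under 0.05 (4.7% of all genes). Trpm8, the cold receptor, was 7.9, 8.78, 16.8 and 8.72 CPM in VEGFA and 1.2, 1.04, 13.6 and 12.9 CPM in saline females. Its 1.16 (SE 0.678) was thus 2.45 in batch 1 and -0.12 in batch 2. The same shape held for Mrgprd of non-peptidergic nociceptors (1.12 and -0.08), the GDNF receptor Gfra1 (1.30 and 0.07), the ATP-gated channel P2rx3 (0.84 and -0.22) and, less sharply, the potassium channel Kcna1 (1.27 and 0.32). The saline libraries 3 and 4 were the low ones in each, and they were also the female libraries with length trends below 0 given above (-0.106 and -0.15). The part of the length trends in these differences was not tested.

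Among the glia, Fabp7, a fatty acid carrier of satellite glia, lay lower by a like amount in each batch (-0.39 and -0.43), although VEGFA animal 1 (178 CPM) lay within the saline range. Apoe was 4570, 3830, 3490 and 4110 against 5680, 9070, 4150 and 4720 CPM (-0.50, SE 0.21). Most satellite glia genes went the other way, with 8 of 12 higher and a median of 0.13 (0.36 in batch 1, -0.06 in batch 2). An unadjusted p under 0.05 was reached by 3 on the lower side (4.79% of all genes) and 1 on the higher side (4.7%). Myelin genes of Schwann cells lay higher in 13 of 15 cases with a median of 0.24 (0.41 in batch 1, 0.11 in batch 2). Of 21 nerve injury genes, 13 lay lower (51.4% of all genes did) and the median was -0.13 (-0.28 in batch 1, 0.03 in batch 2). In males the median was 0.34 (-0.14 in batch 1, 0.83 in batch 2). The injury-induced factor Jun had means of 104 (SD 6.2) CPM after VEGF and 127 (SD 11) CPM after saline. It did not overlap (-0.28, SE 0.124), lay higher in males (0.34), and gave a female minus male difference of -0.62 (limma adjusted p = 0.608).

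The genes of the VEGF system itself had a median of 0, with 0 of 10 under an unadjusted p of 0.05. Vegfa transcripts were 42.3, 36.6, 45.9 and 33 CPM in VEGFA and 29.4, 19.4, 47.4 and 31.8 CPM in saline females (0.35, SE 0.266). The main receptor Kdr was 18.1, 25.9, 14.9 and 12.7 against 15.9, 9.24, 16.6 and 11.6 CPM, with 0.81 in batch 1 and -0.01 in batch 2. Flt1 differed by 0.25, Nrp2 by 0.22 and placental growth factor (Pgf) by -0.22, each with a 95% interval that held 0. Of 19 angiogenic genes 1 lay higher with an unadjusted p under 0.05 and 1 lower, near the shares of all genes (4.7% and 4.79%). These were the angiopoietin receptor Tek (0.86, SE 0.321) and the Notch target Hes1 (-0.49, SE 0.181). The list median was 0.58 in batch 1 and -0.06 in batch 2. The endothelial phosphatase Ptprb lay higher (0.82, SE 0.267), while the 18 endothelial genes had a median of 0.04. The batch 2 values of Tek, Ptprb and Hes1 were 0.30, 0.60 and -0.58, and all overlapped.

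Signs of RNA composition moved in batch 1 as well. Of 75 cytosolic ribosomal protein genes 72 lay lower with a median of -0.29, which was -0.52 in batch 1 and -0.07 in batch 2. The 13 mitochondrially encoded genes all lay higher, with a median of 0.31 (0.48 in batch 1, 0.15 in batch 2). VEGFA animal 2 had the highest sum of them (92300 CPM). Without saline animal 4 the median was 0.14 with 11 of 13 higher. In males all 13 lay lower over both batches, with a median of -0.37 in batch 1 and -0.49 in batch 2. The genes of the unfolded protein response had a median of -0.22, with 13 of 16 lower and Hspa5 and Pdia6 at nearly equal differences in both batches. The part of RNA composition in the other results was not tested.

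**Figure D5:**
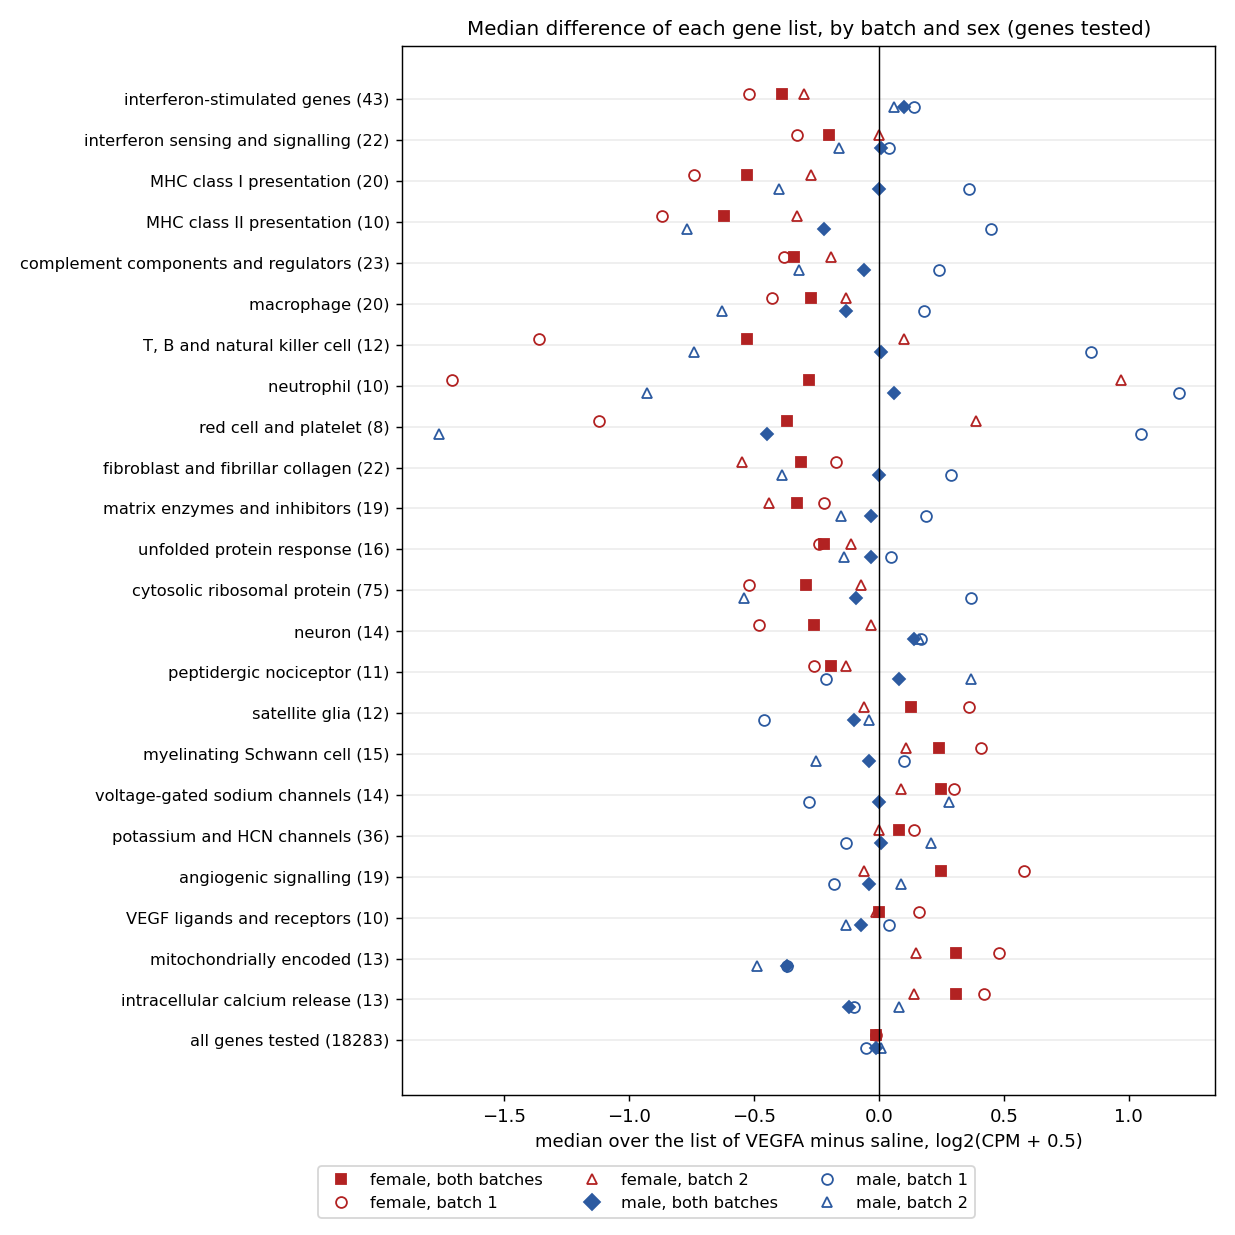
Median VEGFA minus saline difference, in log2(CPM + 0.5), of each gene list (number of genes tested in brackets), for females in red and males in blue, over both batches (filled) and in batch 1 (open circles) and batch 2 (open triangles). The interferon-stimulated, class I, class II, complement, fibroblast and ribosomal medians, among others, lie below 0 in both female batches. In males the interferon-stimulated medians lie above 0 in both batches. The class I, class II, complement, fibroblast and ribosomal medians lie on opposite sides of 0 in the 2 male batches.

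Set beside the males, the saline female mean was often the highest for these lists. The lists were described because saline lay above VEGFA in females, so part of this was fixed in advance. The saline female mean was the highest of the 4 group means for 34 of 43 interferon-stimulated genes (79.1%), 19 of 20 class I genes (95%) and all 10 class II genes. The same held for 17 of 23 complement genes (73.9%), 20 of 22 fibroblast genes (90.9%) and 13 of 19 matrix enzyme genes (68.4%). It was the highest for 30.9% of all genes. In the same order of lists, the VEGFA female mean lay between the male means for 12, 3, 4, 6, 4 and 3 genes. It did so for 5047 of all 18283 genes, so VEGFA females were not shown to match the males. Irf7, Pi16 and Col6a2 are single examples and do not stand for their lists. For Irf7 the means were 33.1 CPM in saline and 16.1 CPM in VEGFA females, against 14.2 and 12.6 CPM in saline and VEGFA males. Pi16 was at 80.0 and 38.9 CPM in females and at 40.1 and 38.8 CPM in males. Col6a2 was at 233 and 129 CPM in females and at 127 and 121 CPM in males.

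The difference between the sexes in the response was tested for every gene and none passed (0 of 18283, smallest adjusted p = 0.608 in limma, with 1497 under an unadjusted 0.05). edgeR called 0 and DESeq2 called 1, Sox1. Of the interferon-stimulated genes 16 had an unadjusted interaction p under 0.05 below 0, against 3.68% of all genes, and 0 above 0. The same count was 5 of 22 for fibroblast genes, 2 of 20 for class I and 0 of 10 for class II genes. Larger shares had such a p above 0, against 4.51% of all genes. These were 8 of 8 slow muscle, 10 of 10 shared muscle, 4 of 11 fast muscle and 8 of 13 mitochondrially encoded genes. In batch 1 this comparison and the runs cannot be told apart either. In batch 2 alone 1660 of all 18283 genes had such a p in either direction. Below 0 it held for 11 of 43 interferon-stimulated and 4 of 22 fibroblast genes. It held for 0 of 20 class I and 0 of 10 class II genes. Above 0 it held for 7 of 8 slow, 2 of 10 shared and 0 of 11 fast muscle genes. The mitochondrially encoded count was 9 of 13. In males 36 of the 43 interferon-stimulated genes lay higher, 2 with an unadjusted p under 0.05 (2.47% of all genes), and 7 lay lower, 0 with such a p (3.04% of all genes), with a median of 0.10.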

How the data were processed

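Poly(A) RNA of lumbosacral ganglia from 16 animals was sequenced as paired reads. The deposited table holds counts per M reads (CPM) per gene for each library, made by the authors with Partek, Bowtie2, STAR and HTSeq on build mm39, per the submitters' processing notes, which give no version or role for each tool. Strandedness, filters and the annotation release are not given in the sources used here. CPM steps gave back whole reads for 99.79% to 99.91% of the values above 0 in the female libraries (within 0.1 read), 25.16 to 37.57 M reads per library.

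Of 55357 genes, 18283 averaged 0.5 CPM or more across all 16 libraries and entered the tests, and the remaining 37074 did not. Values were log2(CPM + 0.5), which understates changes of low genes, and CPM is not per length, so levels are not compared between genes. limma 3.58.1 (R 4.3.3) was fitted on all 16 libraries, with sex and treatment groups and batch as covariate, moderated with a trend, and adjusted by Benjamini-Hochberg over all genes tested. Male and female responses were compared by the difference of the 2 contrasts. The recovered reads were also run through edgeR 4.0.16 and DESeq2 1.42.0. The fits were tested on simulated data. The comparison to be described and the gene lists were chosen with earlier results of these data known.

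Genes named were the 15 higher and 15 lower with the smallest p that averaged 1 CPM or more and had the same sign in both batches, up to 6 per list with the smallest p, and any member of the VEGF, complement, class II, chaperone and calcium release lists. Outside this rule, and chosen after their values were seen, were Adamtsl4, Dcn, Gbp2, Ifi27, Ifit1, Ifit2, Ifit3, Igfbp6, Loxl1, Magoh, Mx1, Oasl2, Parp9, Prph, Tap1 and Sox1, and the overlapping genes Art3, Irgm2, Patl2 and Syn1. Transcript lengths came from GENCODE for 18250 of 18283 genes (99.8%), and promoters from RefSeq (GRCm38.p6). Gene coordinates are those of the deposited table, with the end reduced by 1 because it is exclusive there. Alternatives were other pseudocounts, filters, scalings and variance settings, no batch term, the female libraries alone, each batch alone, each female library left out, and edgeR and DESeq2. Some single genes are not reported here.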

Additional observations from a re-analysis of the deposited data

Results flagged for a closer look

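In groups of 4 libraries, a value was listed here when it stood far from the other 3, with a gap above Dixon's 95% critical value. This held for 25 of 266 sets of values checked, where chance alone gives about 1 in 20, or 13. Saline animal 3 and VEGFA animal 2 gave 7 each, saline animal 4 gave 5 and VEGFA animal 5 gave 4.

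Muscle genes made up most of those of saline animal 3, with Myh7 at 71.9, Tnni1 at 90.7, Tnnt1 at 250, Tnnc1 at 126 and Myl3 at 108 CPM, and with sums of 1410 CPM for slow and 17200 CPM for fast muscle genes. In VEGFA animal 2, Myh7 was 211 and Ryr1 906 CPM, and the sums were 25700 CPM for fast and 19900 CPM for shared muscle genes. The same animal had Flt1 at 70.5, a low Mrgprd at 82.3 and a complement sum of 2210 CPM.

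Saline animal 4 stood above the other saline females for Bst2 (59.6 CPM), Rfx1 (25.5 CPM), Zbp1 (11.7 CPM), Irf3 (55.3 CPM) and Ccl5 (12.4 CPM). VEGFA animal 5 stood apart for Pde7b (13.2 CPM), Sfrp4 (123 CPM), Trpm8 (16.8 CPM) and the summed T, B and natural killer cell markers (71.5 CPM). Single cases were Loxl1 in saline animal 7 (35 CPM) and Hspb1 in VEGFA animal 1 (131 CPM).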

How the results depend on the processing

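With 1 female library left out, limma passed 0 to 5 higher genes (5 without saline animal 3) and 0 to 1 lower (Capn11, without saline animal 8). Genes with an unadjusted p under 0.05 numbered 236 to 1236 higher and 369 to 1228 lower, the lowest without saline animal 4. Without VEGFA animal 2 there were 283 and 392, and without saline animal 8 there were 523 higher. For the female minus male difference, 0 to 5 genes passed and 811 (without VEGFA animal 2) to 1767 had an unadjusted p under 0.05, with 872 without saline animal 4.

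In batch 1 alone 5 higher and 2 lower genes passed, 1850 and 1685 had an unadjusted p under 0.05, and the female minus male difference gave 923 and 4915. In batch 2 alone 6 higher genes passed, 328 and 417 had an unadjusted p under 0.05, and the difference gave 8 passing. Without a batch term the unadjusted counts were 256 and 442, and 766 for the difference. Without a filter 1386 lower genes had an unadjusted p under 0.05 and 196 higher genes did not overlap, and median-of-ratios scaling gave 199 and 240 genes without overlap, counts added after seeing the data. DESeq2 passed 1 gene in each of the female and the female minus male comparisons.

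Signs turned in batch 2 alone for Trpm8 (-0.12), Mrgprd (-0.08), P2rx3 (-0.22), Kdr (-0.01), Masp1 (-0.01) and the median of T, B and natural killer cell markers (0.10). C3, near 0, was -0.28 without VEGFA animal 2 and became 0.12 with array weights, 0.18 without VEGFA animal 1 and 0.18 without VEGFA animal 6, 0.22 without saline animal 3, 0.24 in batch 2, and 0.05 in both edgeR and DESeq2. The cause was not tested. Counts of list members without single libraries and by batch were also added after seeing the data.

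No paired analysis was possible for the female comparison because VEGFA and saline females share no animal numbers. Males and females do share them, and same-numbered animals had correlations of their deviations of 0.0948 to 0.375 from group means and of 0.00996 to 0.316 within batches. Not every pair was over 0.1, so the numbers were not taken as pairs. With the number as a replicate block, 1 gene passed for the female minus male difference. Depth limits genes near 0.1 CPM, since 3 reads stood for 0.0799 to 0.119 CPM in the female libraries.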
